A study of Mus musculus with 4 samples.

Results

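The 10 genes described here encode enzymes that cut the extracellular matrix and the proteins that hold them in check. They were taken by symbol from the 32285 genes of the deposited tables as 7 proteases, namely Mmp2, Mmp3, Mmp12, Mmp14, Mmp19, Adam8 and Adamts5, and 3 tissue inhibitors of metalloproteinases, namely Timp1, Timp2 and Timp3, and all 10 were found. Their UMIs, which are counts of single captured mRNA molecules, were followed cell by cell in the stromal vascular fraction (SVF) of brown adipose tissue (BAT), that is, the immune, stromal and vascular cells left once the fat cells have been removed. There were 4 libraries, all of strain C57BL6/J by the labels, namely WT mice aged 10 weeks (WT), db/db mice of 8 weeks (db/db 8w) and of 16 weeks (db/db 16w), and mice on a high-fat diet (HFD). HFD mice were labelled as aged 10 weeks, but since the study began a diet of 10 weeks at an age of 10 weeks, their age is not settled. db/db mice carry a mutation of the leptin receptor gene in every cell and become obese and diabetic on ordinary food, whereas HFD mice do not carry it. Each library pooled several mice, so that there was 1 library per group and no replicate. No difference between groups could be tested, and the 95% intervals given in parentheses hold the counting error alone, not the spread between mice or preparations.

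Matrix metalloproteinases (MMPs), ADAM and ADAMTS enzymes are zinc proteases that are made as inactive precursors, and cells control them through synthesis, activation and inhibition. TIMPs bind the active site of MMPs, but TIMP2 also links MMP14, which sits in the cell membrane, to the precursor of MMP2 so that MMP14 can activate it. TIMP3 is bound to the matrix and also inhibits ADAM and ADAMTS enzymes. In fat, stromal cells lay down most of the fibrillar matrix, and macrophages that take up lipid from dying adipocytes also secrete proteases.

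To give a view of their regulatory DNA, the stretches just upstream of 4 of these genes are shown, Mmp12 and Adam8 for the proteases found mainly in macrophages, and Mmp3 and Timp1 for the members with the largest differences between libraries in stromal cells that stood above the level in T cells. Each line gives the 250 bases before the start of transcription in RefSeq (GRCm38.p6), 5′ to 3′ on the strand of the gene. The 4 motifs searched on both strands were the AP-1 motif TGANTCA, the core GAGGAA read by PU.1 in myeloid cells, the E-box CACGTG and the TATA box sequence TATAAA, and capitals mark each match.
Mmp12, chr9:7344147-7344396, plus strand: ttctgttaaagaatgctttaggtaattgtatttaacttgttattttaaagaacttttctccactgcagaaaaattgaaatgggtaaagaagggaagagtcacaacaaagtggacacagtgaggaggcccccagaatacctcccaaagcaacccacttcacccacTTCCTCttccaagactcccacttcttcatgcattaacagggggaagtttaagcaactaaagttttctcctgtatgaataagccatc
Adam8, chr7:139992563-139992812, minus strand: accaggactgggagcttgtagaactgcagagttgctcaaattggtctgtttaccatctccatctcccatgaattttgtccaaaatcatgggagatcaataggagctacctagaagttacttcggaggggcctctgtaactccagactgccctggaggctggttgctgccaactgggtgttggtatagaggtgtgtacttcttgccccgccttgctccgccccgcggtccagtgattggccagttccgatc
Mmp3, chr9:7445572-7445821, plus strand: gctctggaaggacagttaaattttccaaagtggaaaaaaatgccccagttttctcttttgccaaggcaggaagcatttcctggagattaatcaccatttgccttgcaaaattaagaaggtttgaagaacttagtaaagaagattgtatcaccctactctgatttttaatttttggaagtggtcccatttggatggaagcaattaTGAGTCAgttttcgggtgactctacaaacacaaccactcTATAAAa
Timp1, chrX:20869916-20870165, plus strand: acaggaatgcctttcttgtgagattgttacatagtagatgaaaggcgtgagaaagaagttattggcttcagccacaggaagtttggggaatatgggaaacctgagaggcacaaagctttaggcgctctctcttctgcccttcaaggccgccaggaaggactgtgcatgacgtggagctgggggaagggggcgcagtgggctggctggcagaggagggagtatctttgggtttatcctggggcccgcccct
The Mmp12 stretch held 1 GAGGAA match, read on the other strand from bases -86 to -81, and the Mmp3 stretch held a TGANTCA match from -46 to -40 and a TATAAA match from -7 to -2. TGANTCA occurs in 6.75%, GAGGAA in 23.3%, CACGTG in 6.02% and TATAAA in 12.4% of all 32851 promoters cut to the same length. These letters were not found in the stretches of Adam8 and Timp1. Of the 10 genes, 7 were in the promoter table, and Mmp2, Mmp19 and Adamts5 were not.

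On GRCm38, Mmp12 (chr9:7344381-7369499) and Mmp3 (chr9:7445822-7455975) lie in the MMP gene cluster of chromosome 9, on the plus strand. The other members are spread over the genome, with Mmp2 at chr8:92827291-92853420, Mmp14 at chr14:54431612-54445364, Mmp19 at chr10:128790910-128800824, Timp3 at chr10:86300372-86349506 and Timp1 at chrX:20870166-20874735 on the plus strand, and Timp2 at chr11:118301069-118355740, Adam8 at chr7:139978932-139992562 and Adamts5 at chr16:85856173-85901828 on the minus strand. Timp1 lies within Syn1, Timp3 within Syn3 and Mmp19 within Gm47093, each on the other strand, while the ends of Mmp12, Mmp19 and Adam8 overlap Mmp1b, Tmem198b and Gm16201 on the other strand. Timp2 contains Cep295nl and Adam8 contains Mir7062 on their own strand. How the counting treated strand is not given in the sources used here, and whether reads of these partners entered the counts of the members was not tested.

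Cells were gated on raw UMIs of marker genes that are not among the 10, as macrophages (Csf1r, Adgre1, Cd68, C1qa and 4 others), stromal cells (Pdgfra, Lum, Dpt and 3 others) or endothelial cells (Pecam1, Cdh5, Kdr and 5 others). Macrophages numbered 1320 in WT, 3467 and 2429 in db/db 8w and 16w, and 1769 in HFD, stromal cells 4200 in WT, 5416 and 1091 in db/db 8w and 16w, and 1502 in HFD, and endothelial cells 19 in WT, 85 and 1432 in db/db 8w and 16w, and 1493 in HFD. Few endothelial cells of WT and db/db 8w were thus available. Further marker panels that the gates did not use stood in the right classes. Those for macrophages (Lyz2, Ctss, Tyrobp, Fcer1g and Mrc1) summed to between 9984 and 13562 UMIs per 1000000 UMIs of the class (CPM) in macrophages and to at most 555 CPM in stromal cells, and those for stromal cells (Col1a1, Col1a2, Col3a1 and Dcn) to between 38828 and 51048 CPM in stromal cells.

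Macrophages were divided by a lipid-associated gate (Trem2, Gpnmb, Cd9 and Spp1) with 16 in WT, 809 and 1576 in db/db 8w and 16w, and 1046 in HFD, and a perivascular gate (Lyve1, Folr2, Cd163, F13a1 and Cbr2) with 1216 in WT, 1859 and 418 in db/db 8w and 16w, and 188 in HFD. Stromal cells were divided into progenitors (Pi16, Dpp4, Sema3c, Cd55 and Anxa3), of which there were 3043 in WT, 1631 and 29 in db/db 8w and 16w, and 174 in HFD, and committed cells (Col15a1, Col4a1, Col4a2 and Sparcl1), of which there were 653 in WT, 2824 and 1041 in db/db 8w and 16w, and 1274 in HFD. RNA that leaks from broken cells gives UMIs in cells that do not make a gene, and T cells, gated on Cd3d, Cd3e, Lck and 5 others, served as the class in which such free RNA can be read. A level that did not exceed the counting interval of T cells, or for 0 UMIs their limit, is said to be not above T cells. Where that was the higher of the levels compared, no difference is read. The part of free RNA in such a level was not tested. T cells numbered 36 in WT, 125 and 50 in db/db 8w and 16w, and 33 in HFD.

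The libraries differed in depth and quality. The median UMIs per kept cell were 6218 in WT, 3193 and 2733 in db/db 8w and 16w, and 5066 in HFD, and the median mitochondrial share was 4.29% in WT, 5.94% and 0.799% in db/db 8w and 16w, and 10.5% in HFD. Library db/db 16w stood apart, with 207 CPM of the female-specific transcript Xist against at most 0.688 CPM elsewhere and 17.7 CPM of Y-linked genes against 164 to 188 CPM, although the study describes male mice. Between 16 and 97 barcodes were shared by any pair of libraries, of which 7 to 25 were kept in both, and leaving out all such barcodes changed no direction of a call among the 10.

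To learn which cells carry which member, macrophages were first compared with stromal cells inside each library, where preparation and sequencing are shared. A gene was called where the levels differed at least 2-fold with a counting interval that excluded equality, among genes with at least 10 CPM in 1 of both classes. Mmp12, macrophage elastase, and Adam8, a membrane protease of leukocytes, were the 2 members higher in macrophages in all 4 libraries, beside 17.5% of all genes tested in WT, 16.5% and 17.6% in db/db 8w and 16w, and 16.2% in HFD. Stromal cells were higher for 7 members in WT and db/db 8w, beside 23.8% and 24.2% of all genes, and for 6 in db/db 16w and HFD, beside 28.8% and 22.5%. The 6 were Mmp2, Mmp3, Mmp14, Adamts5, Timp1 and Timp3, and the seventh was Timp2. Over the 10 members the median log2 ratio of macrophages to stromal cells was -3.37 in WT, -3.82 and -4.94 in db/db 8w and 16w, and -4.48 in HFD, whereas over all genes tested it was -0.17, -0.13, -0.19 and -0.04.

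**Figure D1:**
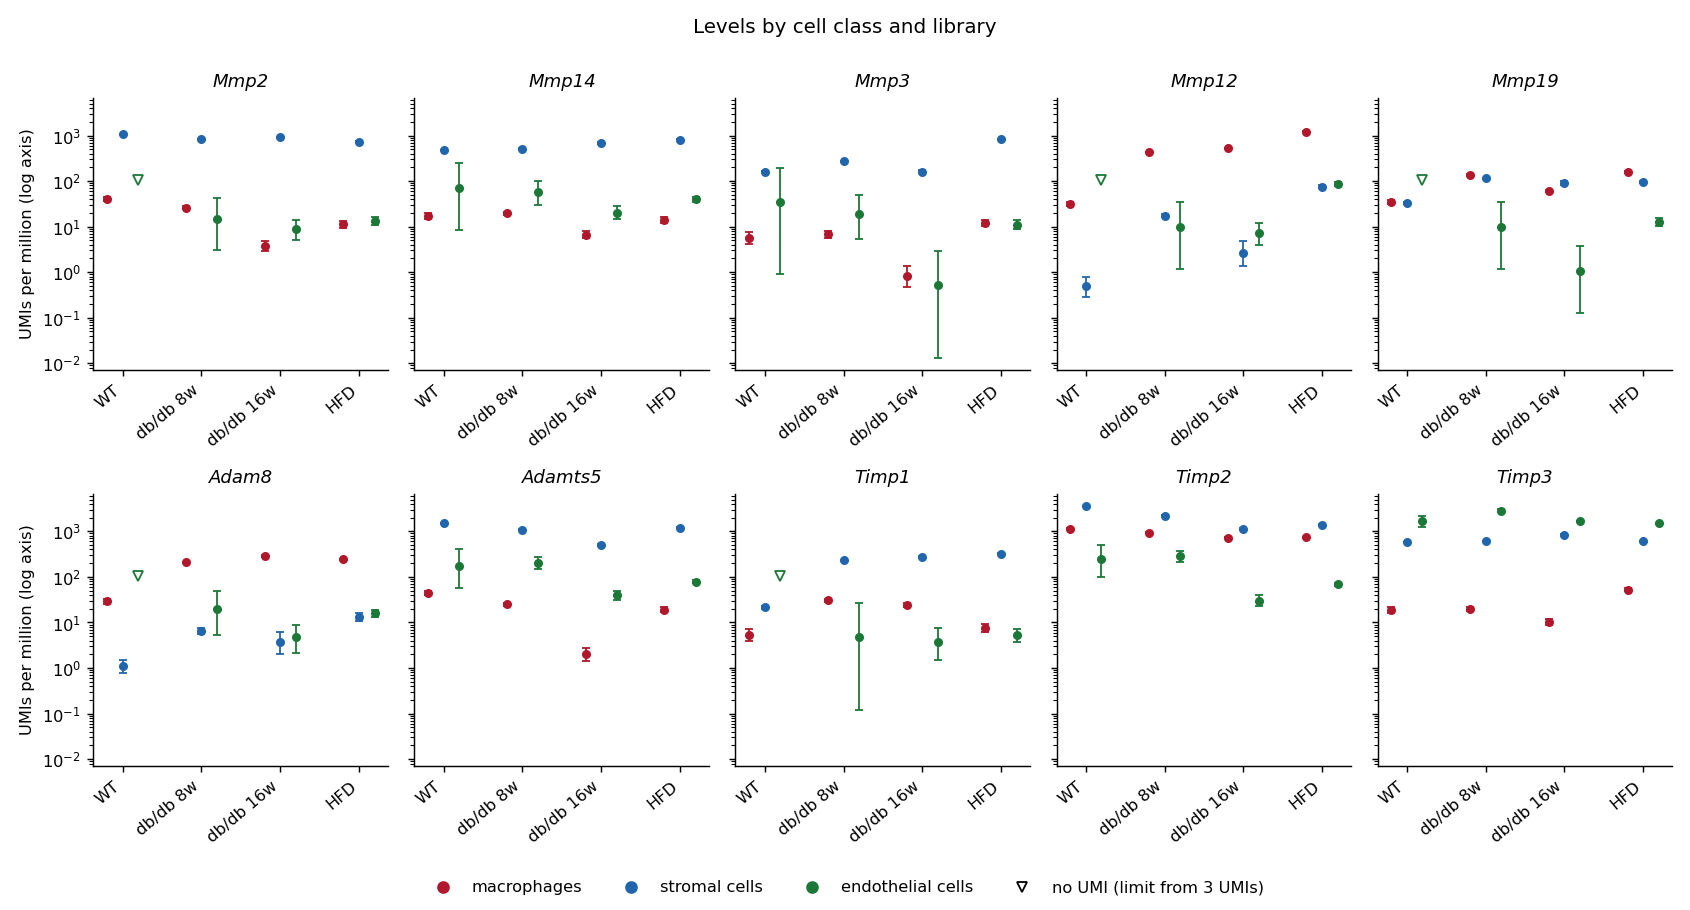
Level of each of the 10 genes in CPM of the class (log axis) in macrophages, stromal cells and endothelial cells of the 4 libraries, with exact Poisson 95% intervals; open triangles stand for no UMI, at the level 3 UMIs would give. Mmp12 and Adam8 were highest in macrophages, Timp3 in endothelial cells, and Mmp2, Mmp14, Mmp3, Adamts5 and Timp1 in stromal cells in all 4 libraries. WT endothelial cells held no UMI of Mmp12, Adam8 or Timp1. Their limit of 106 CPM lies above the highest WT level shown for each of these genes, so their ranking in WT is not settled.

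Where the molecules of a member lay depended both on the level per cell and on how many cells of each class a library held. Macrophages held most UMIs of Mmp12, with 76.8% in WT, 84.9% and 93.7% in db/db 8w and 16w, and 84.6% in HFD. They also held most of Adam8, with 71.3% in WT, 84.2% and 95.6% in db/db 8w and 16w, and 83.7% in HFD. Stromal cells held between 88.1% and 97.3% of Mmp2 UMIs and between 83.6% and 97.5% of Adamts5 UMIs. Timp2 and Mmp19 had no such fixed holder, since the macrophage share of Timp2 was 7.38% in WT, 23.1% and 70.8% in db/db 8w and 16w, and 40.6% in HFD, and that of Mmp19 was 20.6% in WT, 43.9% and 69.9% in db/db 8w and 16w, and 62.7% in HFD. Endothelial cells held 0.226% in WT, 3.18% and 43.0% in db/db 8w and 16w, and 58.4% in HFD of Timp3 UMIs. As the cell numbers of the classes differed strongly between libraries, these shares describe the libraries and not the tissue.

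**Figure D2:**
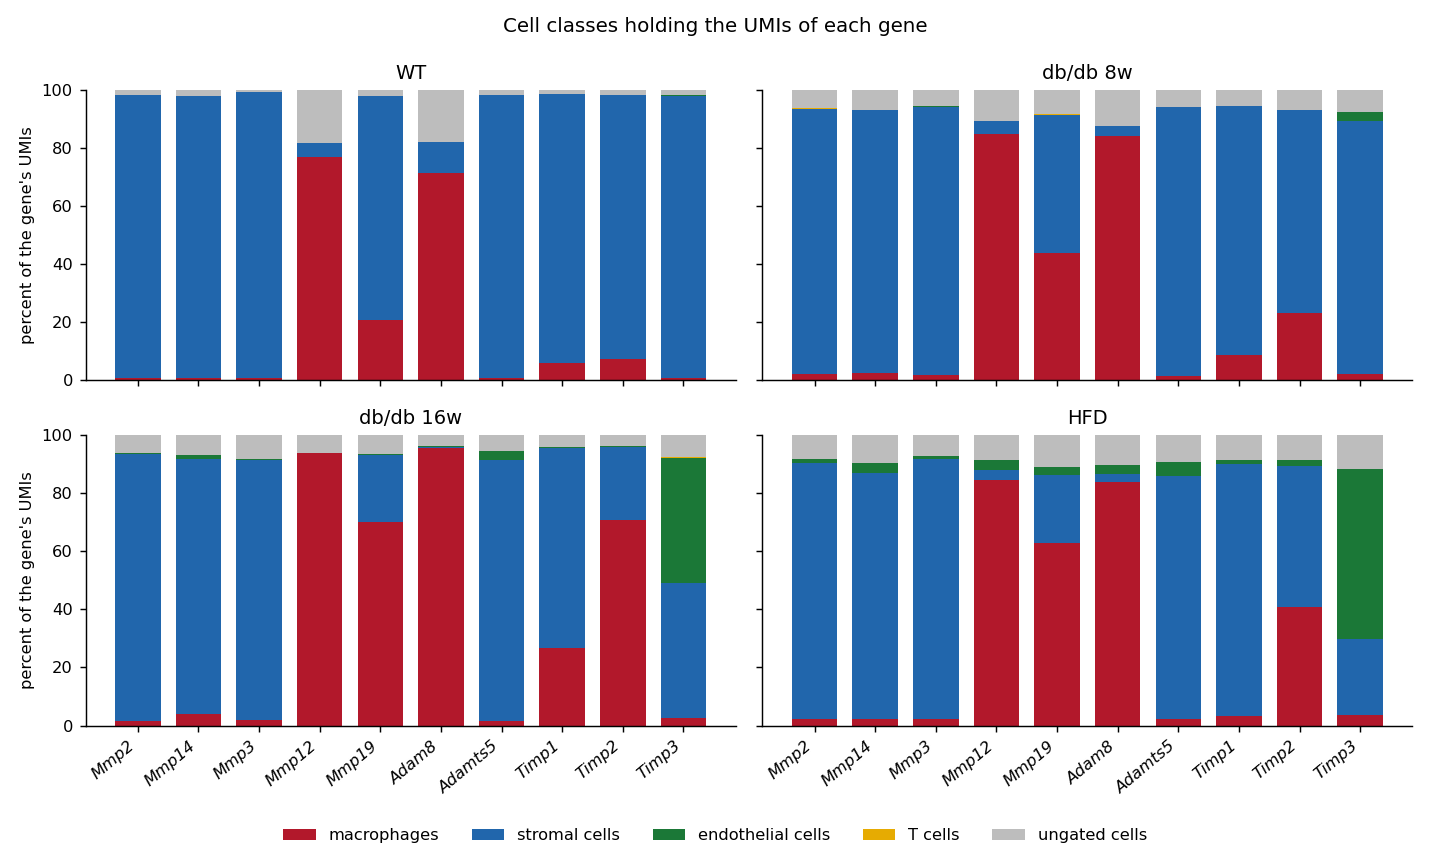
Percent of the UMIs of each gene (vertical axis) in kept cells that fell in gated macrophages, stromal cells, endothelial cells, T cells and ungated cells, with 1 panel per library. Macrophages held 76.8% to 93.7% of Mmp12 UMIs, the macrophage share of Timp2 ran from 7.38% in WT to 70.8% in db/db 16w, and endothelial cells held 58.4% of Timp3 UMIs in HFD.

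Mmp12 showed the widest range among macrophages. This elastase, which also cuts other matrix proteins, was at 31.3 CPM (27.7 to 35.2) in WT, 429 CPM (420.4 to 438) and 521 CPM (510.3 to 531) in db/db 8w and 16w, and 1209 CPM (1189.9 to 1228) in HFD. Every obese library was above WT by far more than the counting error, and HFD was highest. The log2 ratios to WT were 3.78 (3.60 to 3.96) and 4.06 (3.88 to 4.24) in db/db 8w and 16w and 5.27 (5.10 to 5.45) in HFD, or 13.7-fold, 16.6-fold and 38.6-fold. The WT level rests on 271 UMIs, of which 121 lay in 1 cell, and with the highest cell of each library left out these folds were 23.7, 28.9 and 68.3. These molecules lay in a minority of macrophages outside HFD. Macrophages without a single Mmp12 UMI made up 99.0% in WT, 80.6% and 83.3% in db/db 8w and 16w, and 39.6% in HFD. The 10% of macrophages with the most Mmp12 UMIs held 100% in WT, 95.5% and 97.0% in db/db 8w and 16w, and 72.8% in HFD of them, and the highest single cell carried between 121 and 375 UMIs.

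Shares of cells with a UMI were compared after random thinning of every cell to 1000 UMIs. Macrophages with an Mmp12 UMI then made up 0.619% (0.268 to 1.22) in WT, 9.86% (8.84 to 11) and 9.47% (8.32 to 10.7) in db/db 8w and 16w, and 30.5% (28.3 to 32.7) in HFD. Without thinning they were 0.985% in WT, 19.4% and 16.7% in db/db 8w and 16w, and 60.4% in HFD. T cells should lack Mmp12, and after thinning 0 of 36 in WT, 3 of 123 and 0 of 39 in db/db 8w and 16w, and 5 of 33 in HFD had a UMI. In HFD this is 15.2%, where T cells had a median of 3062 UMIs and macrophages of 5874 UMIs, and the counts of 0 allow shares of up to 8.33% in WT and 7.69% in db/db 16w. As a level, Mmp12 in HFD was at 179 CPM (108 to 279) in T cells, 86.3 CPM in endothelial cells and 75.2 CPM in stromal cells, well below the 1209 CPM of macrophages. Mmp12 in stromal and endothelial cells of HFD was thus not above T cells.

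Adam8 and Mmp19 were also higher in macrophages of obese mice. Adam8 was at 29.3 CPM (25.8 to 33.2) in WT, 209 CPM (203 to 215) and 288 CPM (280 to 296) in db/db 8w and 16w, and 242 CPM (233 to 250.4) in HFD. The 3 obese libraries lay close together, and their intervals did not overlap that of WT. The log2 ratios were 2.83 (2.65 to 3.02) and 3.29 (3.11 to 3.48) in db/db 8w and 16w and 3.04 (2.86 to 3.23) in HFD, or 7.13-fold, 9.81-fold and 8.25-fold, and after thinning the share of macrophages with a UMI was 1.55% in WT, 11.2% and 18.5% in db/db 8w and 16w, and 15.8% in HFD, against 0% in WT, 0% and 2.56% in db/db 8w and 16w, and 6.06% in HFD of T cells. Adam8 was spread over more cells than Mmp12 in db/db mice, as the 10% of macrophages with the most UMIs held 68.3% of them in db/db 8w and 51.4% in db/db 16w. Mmp19, a protease of basement membrane components, was at 34.6 CPM (30.8 to 38.8) in WT, 135 CPM (130.1 to 140.1) and 61.6 CPM (58.0 to 65.3) in db/db 8w and 16w, and 161 CPM (154 to 168) in HFD. It was called higher in db/db 8w (3.90-fold) and HFD (4.64-fold), whereas the log2 ratio of 0.83 (0.65 to 1.02) in db/db 16w stayed under 2-fold.

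In all, macrophages were higher than WT for 4 of 9 members tested in db/db 8w, for 3 of 9 in db/db 16w and for 5 of 9 in HFD, beside 5.52%, 20.5% and 14% of all genes tested. They were lower for 0, 3 and 2 members, beside 5.68%, 25.8% and 10.5%. So many genes were called in db/db 16w that the members' counts there stand near the background. The median log2 ratio of members tested was 0.19, -0.68 and 1.10, beside 0.02, -0.14 and 0.17 over all genes. Scaling by the median of ratios in place of the class total shifts all log2 ratios of HFD to WT macrophages by 0.15, and turned the direction of no called member. For the gates within macrophages and stromal cells these shifts lay between -0.20 and 0.17.

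The members lower in macrophages were Mmp2, Mmp14 and Adamts5 in db/db 16w and Mmp2 and Adamts5 in HFD, and in WT none of the 3 left the counting interval of T cells. Mmp2, gelatinase A, was in macrophages at 39.7 CPM in WT, 26.2 and 3.75 CPM in db/db 8w and 16w, and 11.3 CPM in HFD, and in WT T cells at 56.0 CPM (27.9 to 100.2). Adamts5, an aggrecanase, was in macrophages at 43.6 CPM in WT, 24.9 and 2.04 CPM in db/db 8w and 16w, and 18.9 CPM in HFD, and in WT T cells at 25.4 CPM (8.26 to 59.4). Mmp14 was in macrophages at 17.1 CPM in WT, 19.4 and 6.67 CPM in db/db 8w and 16w, and 14.2 CPM in HFD, and in WT T cells at 15.3 CPM (3.15 to 44.6). The stromal gate markers, all 6 of them above 0 in macrophages of every library, summed there to 239 CPM in WT, 161 and 12.4 CPM in db/db 8w and 16w, and 132 CPM in HFD, highest in WT and lowest in db/db 16w like Mmp2 and Adamts5. Their part in these levels was not tested. Mmp14 and Adamts5 were not above T cells in macrophages of any library, and Mmp2 was above them in db/db 8w only, at 26.2 CPM against 9.55 CPM (2.60 to 24.5). Mmp3 and Timp3, both called higher in HFD macrophages, were not above T cells either, with Mmp3 at 12.1 CPM against 28.3 CPM (5.83 to 82.6) in T cells and Timp3 at 51.9 CPM against 28.3 CPM (5.83 to 82.6).

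**Figure D3:**
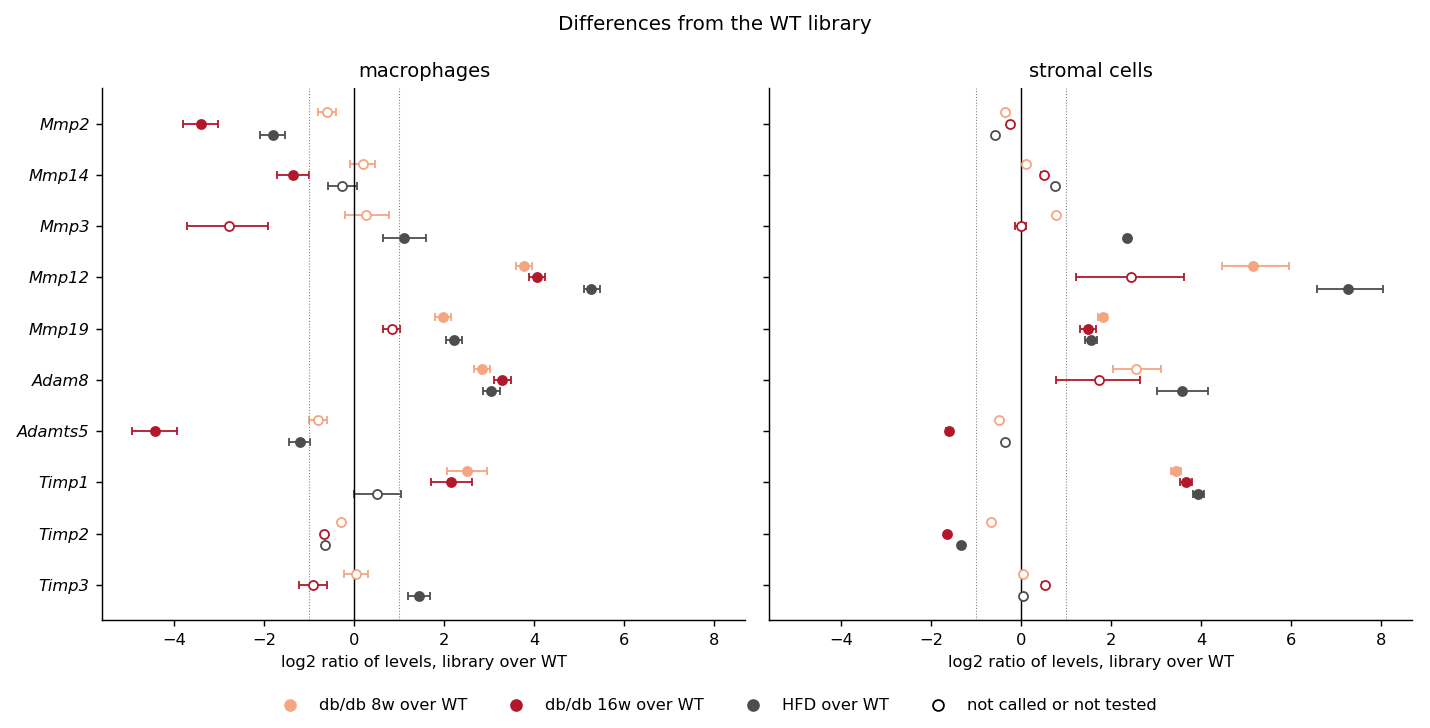
Log2 ratio of the level in each obese library to that in WT (horizontal axis) for the 10 genes, in macrophages and in stromal cells, with exact conditional 95% intervals; filled points were called, open points were not called or not tested, and dotted lines mark 2-fold. Mmp12, Adam8 and Mmp19 lie to the right in macrophages and Timp1 and Mmp19 in stromal cells, while Timp2 lies to the left in both; Mmp12 and Adam8 in HFD stromal cells did not exceed the level in T cells.

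The makeup of the macrophage class differed between libraries, so the proteases were read within each macrophage gate. In every library Mmp12, Adam8 and Mmp19 were higher in lipid-associated than in perivascular macrophages. In the lipid-associated gate Mmp12 was at 591 CPM (484 to 714) in WT, 937 CPM (916 to 959) and 594 CPM (581 to 606) in db/db 8w and 16w, and 1578 CPM (1553 to 1604) in HFD. In the perivascular gate it was at 4.38 CPM in WT, 29.4 and 2.67 CPM in db/db 8w and 16w, and 121 CPM in HFD, and the log2 ratios between the gates were 7.08 (6.51 to 7.67) in WT, 4.99 (4.82 to 5.17) and 7.80 (6.44 to 9.68) in db/db 8w and 16w, and 3.70 (3.43 to 3.99) in HFD. Adam8 was at 419.7 CPM in WT, 349 and 325 CPM in db/db 8w and 16w, and 281 CPM in HFD in the lipid-associated gate. In the perivascular gate Adam8 was at 17.8 CPM in WT, 65.6 and 52.0 CPM in db/db 8w and 16w, and 65.2 CPM in HFD. Mmp19 was at 629.6 CPM in WT, 214 and 70.8 CPM in db/db 8w and 16w, and 176 CPM in HFD in the lipid-associated gate, and in the perivascular gate at 18.7 CPM in WT, 69.0 and 16.7 CPM in db/db 8w and 16w, and 62.9 CPM in HFD. The 16 lipid-associated cells of WT were thus above all obese libraries for Adam8 and Mmp19 and just under their range for Mmp12, but their macrophage gate markers summed to only 3358 CPM in WT, 5203 and 4271 CPM in db/db 8w and 16w, and 7754 CPM in HFD, and so few cells say little about WT mice.

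Members higher in the lipid-associated gate numbered 4 in HFD and 3 in each of the other libraries, beside 6.47% of genes in HFD, 10.9% in WT and 5.68% and 5.48% in db/db 8w and 16w. The fourth in HFD was Adamts5, at 22.0 CPM against 9.15 CPM, both within the interval of T cells (0.238 to 52.5). Members lower there numbered 2 in WT, 1 and 3 in db/db 8w and 16w and 0 in HFD, beside 7.45%, 10.5%, 19.5% and 9.82%, and Timp2 was among them in WT and both db/db libraries.

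**Figure D4:**
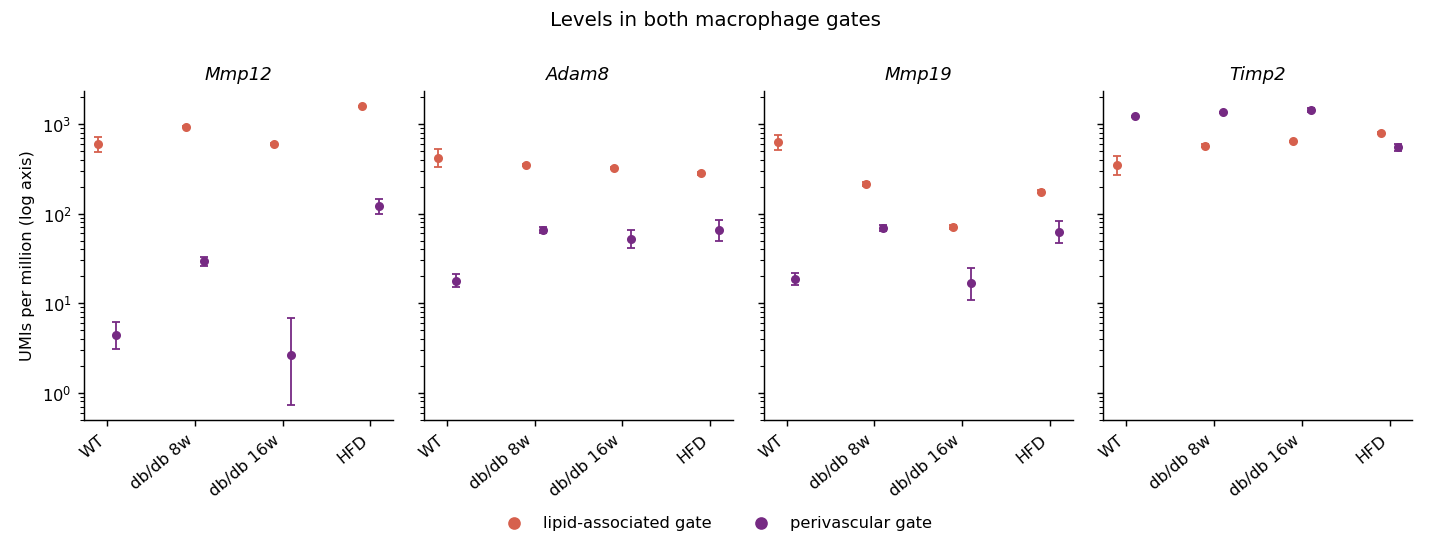
Level of Mmp12, Adam8, Mmp19 and Timp2 in CPM (log axis) in the lipid-associated and the perivascular macrophage gate of each library, with exact Poisson 95% intervals. The 3 proteases were higher in the lipid-associated gate in all 4 libraries, and Timp2 was higher in the perivascular gate in all but HFD, where it was at 795 against 550.4 CPM.

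Against WT, the gates gave different answers. Within perivascular macrophages, Adam8 was called higher in all 3 obese libraries, with log2 ratios of 1.88 (1.62 to 2.16) and 1.55 (1.13 to 1.96) in db/db 8w and 16w and 1.88 (1.41 to 2.33) in HFD. In HFD, though, its 65.2 CPM were not above the 65.9 CPM (26.5 to 136) of T cells. Perivascular Mmp19 was called higher in db/db 8w (1.89, 1.63 to 2.16) and HFD (1.75, 1.28 to 2.21), but not in db/db 16w (-0.16, -0.84 to 0.46), and its 62.9 CPM in HFD lay within the interval of T cells (2.28 to 68.0). Perivascular Mmp12 was called higher in db/db 8w (6.72-fold), where its 29.4 CPM were above T cells (1.48 to 20.9) and the WT level was 4.38 CPM. It was called higher in HFD too, but its 121 CPM were below the 179 CPM of T cells. Within the lipid-associated gate Adam8 was not called, with log2 ratios of -0.27 (-0.60 to 0.08) and -0.37 (-0.70 to -0.02) in db/db 8w and 16w and -0.58 (-0.91 to -0.23) in HFD. There Mmp19 was called lower in all 3, with -1.56 (-1.83 to -1.27) and -3.15 (-3.43 to -2.86) in db/db 8w and 16w and -1.84 (-2.11 to -1.55) in HFD, and Mmp12 was called higher in HFD, with 0.67 (0.39 to 0.95) and 0.01 (-0.27 to 0.30) in db/db 8w and 16w and 1.42 (1.14 to 1.71) in HFD. As the number of lipid-associated cells went from 16 in WT to 809, 1576 and 1046 in the obese libraries, the size of the differences of the whole class for Mmp12, Adam8 and Mmp19 cannot be told apart from this difference in makeup.

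Perivascular macrophages had 4, 3 and 4 members higher than WT in db/db 8w and 16w and in HFD, beside 2.49%, 17.8% and 13.2% of genes, and 0, 2 and 3 lower, beside 2.51%, 12.9% and 7.79%. Lipid-associated macrophages had 1, 1 and 3 higher, beside 3.43%, 9.31% and 6.27%, and 1, 2 and 1 lower, beside 7.17%, 19.9% and 8.06%. None of the members higher in HFD perivascular macrophages, Mmp12, Adam8, Mmp19 and Timp3, was above T cells. Timp1 in db/db 16w was at 19.3 CPM in perivascular and 24.7 CPM in lipid-associated macrophages, under the T cell limit of 26.7 CPM. Timp3 in HFD lipid-associated macrophages, at 49.1 CPM, lay within the T cell interval (5.83 to 82.6). The perivascular Mmp2 and Adamts5 called lower lay within the T cell intervals in WT, at 40.7 and 45.4 CPM. Monocyte markers (Ly6c2, Ccr2 and Plac8) in macrophages summed to 338 CPM in WT, 87.8 and 28.0 CPM in db/db 8w and 16w, and 231 CPM in HFD, and neutrophil markers (S100a8, S100a9, Retnlg and Csf3r) to 37.9 CPM in WT, 86.6 and 49.8 CPM in db/db 8w and 16w, and 18.8 CPM in HFD, with none of either list at 0. Their part in these results was not tested.

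Among stromal cells, the clearest difference concerned Timp1, a secreted inhibitor of most MMPs. Timp1 was at 21.4 CPM (19.9 to 23.0) in WT, 232 CPM (226 to 238) and 271 CPM (255 to 287) in db/db 8w and 16w, and 327 CPM (314 to 339) in HFD. All 3 obese libraries were above WT, by 10.8-fold, 12.7-fold and 15.3-fold, and the log2 ratios were 3.44 (3.33 to 3.55) and 3.66 (3.53 to 3.80) in db/db 8w and 16w and 3.93 (3.81 to 4.05) in HFD. Here too a minority of cells held the molecules, since stromal cells without a Timp1 UMI made up 88.8% in WT, 74.7% and 67.8% in db/db 8w and 16w, and 64.2% in HFD, while the most in a single cell was between 9 and 188 UMIs. After thinning, stromal cells with a Timp1 UMI made up 1.48% in WT, 8.89% and 12.9% in db/db 8w and 16w, and 12.7% in HFD, against 0.813% of T cells in db/db 8w. T cells of WT, db/db 16w and HFD held no Timp1 UMI. They numbered only 36, 50 and 33 before thinning, so their shares set no close limit.

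Timp1 was called higher than WT in both stromal gates. In committed cells the log2 ratios were 2.49 (2.31 to 2.66) and 2.46 (2.27 to 2.65) in db/db 8w and 16w and 2.85 (2.68 to 3.03) in HFD, and in progenitors, of which db/db 16w held 29, they were 3.26 (3.08 to 3.45) and 3.81 (2.84 to 4.63) in db/db 8w and 16w and 1.18 (0.50 to 1.79) in HFD. HFD progenitors, at 29.5 CPM, stood just above the limit of 28.3 CPM that the 0 UMIs of T cells allow there. In macrophages Timp1 was at 5.43 CPM in WT, 30.7 and 23.9 CPM in db/db 8w and 16w, and 7.67 CPM in HFD, which was called higher in db/db 8w (5.66-fold) and db/db 16w (4.41-fold) and was under 10 CPM in WT and HFD. Only in db/db 8w was it above T cells (0.0605 to 13.3), since the 0 UMIs of T cells in db/db 16w allow up to 26.7 CPM. Timp1 is X-linked, and the part of the sex-linked transcripts of db/db 16w in its level was not tested.

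Timp2, which inhibits MMPs and helps to activate the MMP2 precursor, went the other way in the whole classes. In stromal cells it was at 3556 CPM (3536 to 3576) in WT, 2225 CPM (2207 to 2243) and 1126 CPM (1094 to 1159) in db/db 8w and 16w, and 1406 CPM (1380.4 to 1432) in HFD. Every obese library was below WT, with log2 ratios of -0.68 (-0.69 to -0.66) and -1.66 (-1.70 to -1.62) in db/db 8w and 16w and -1.34 (-1.37 to -1.31) in HFD, so that db/db 16w (3.16-fold lower) and HFD (2.53-fold lower) were called. In macrophages Timp2 was at 1152 CPM in WT, 936 and 722 CPM in db/db 8w and 16w, and 736 CPM in HFD, and the log2 ratios of -0.30 (-0.33 to -0.27) and -0.68 (-0.71 to -0.64) in db/db 8w and 16w and -0.65 (-0.69 to -0.61) in HFD stayed under 2-fold. Both classes stood far above T cells, where Timp2 was at 71.3 CPM in WT, 50.2 and 8.90 CPM in db/db 8w and 16w, and 113 CPM in HFD. The log2 ratios of lipid-associated to perivascular macrophages were -1.81 (-2.19 to -1.45) in WT, -1.24 (-1.29 to -1.19) and -1.17 (-1.24 to -1.10) in db/db 8w and 16w, and 0.53 (0.40 to 0.67) in HFD, so that the direction in HFD was opposite to the other libraries. There Timp2 was at 550.4 CPM in perivascular cells, compared with 1217 CPM in WT (2.21-fold lower). Perivascular Timp2 of db/db 8w and 16w was above WT, at 1352 and 1436 CPM. In the lipid-associated gate Timp2 was at 348 CPM in WT, 574 and 639 CPM in db/db 8w and 16w, and 795 CPM in HFD. The WT value there rests on 16 cells with 63 UMIs. The lower Timp2 of the whole macrophage class thus cannot be told apart from its makeup.

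Adamts5, which cuts aggrecan and versican, was in stromal cells at 1535 CPM (1522 to 1548) in WT, 1098 CPM (1085 to 1110.3) and 505 CPM (483 to 527) in db/db 8w and 16w, and 1200.2 CPM (1177 to 1224) in HFD. It was called lower in db/db 16w alone (3.04-fold), with log2 ratios to WT of -0.48 (-0.50 to -0.46) and -1.60 (-1.67 to -1.54) in db/db 8w and 16w and -0.35 (-0.39 to -0.32) in HFD. Adamts5 and Timp2 both belonged more to progenitors than to committed cells, in every library. The log2 ratios of progenitors to committed cells were 1.5 (1.45 to 1.55) in WT, 1.38 (1.34 to 1.41) and 2.22 (1.96 to 2.46) in db/db 8w and 16w, and 1.16 (1.09 to 1.24) in HFD for Adamts5. For Timp2 they were 1.05 (1.02 to 1.08) in WT, 1.24 (1.22 to 1.27) and 1.46 (1.25 to 1.67) in db/db 8w and 16w, and 1.58 (1.51 to 1.64) in HFD, of which WT stays under 2-fold relative to its shift of 0.17. Progenitors made up 3043 of 4200 stromal cells in WT and 29 of 1091 in db/db 16w.

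Neither gene was called against WT within either stromal gate. Within progenitors, Adamts5 had log2 ratios of 0.11 (0.08 to 0.13) and 0.27 (0.02 to 0.50) in db/db 8w and 16w and 0.38 (0.31 to 0.45) in HFD. Timp2 had log2 ratios of -0.13 (-0.15 to -0.11) and -0.44 (-0.65 to -0.24) in db/db 8w and 16w and -0.23 (-0.29 to -0.18) in HFD there. Within committed cells Adamts5 had 0.23 (0.18 to 0.28) and -0.45 (-0.53 to -0.37) in db/db 8w and 16w and 0.71 (0.66 to 0.77) in HFD, and Timp2 had -0.33 (-0.36 to -0.29) and -0.85 (-0.91 to -0.80) in db/db 8w and 16w and -0.76 (-0.80 to -0.72) in HFD. Timp2 was thus below WT within both gates in every obese library, by less than 2-fold. Adamts5 was below WT only in committed cells of db/db 16w. The size of the lower Adamts5 and Timp2 of all stromal cells cannot be told apart from the smaller number of progenitors.

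**Figure D5:**
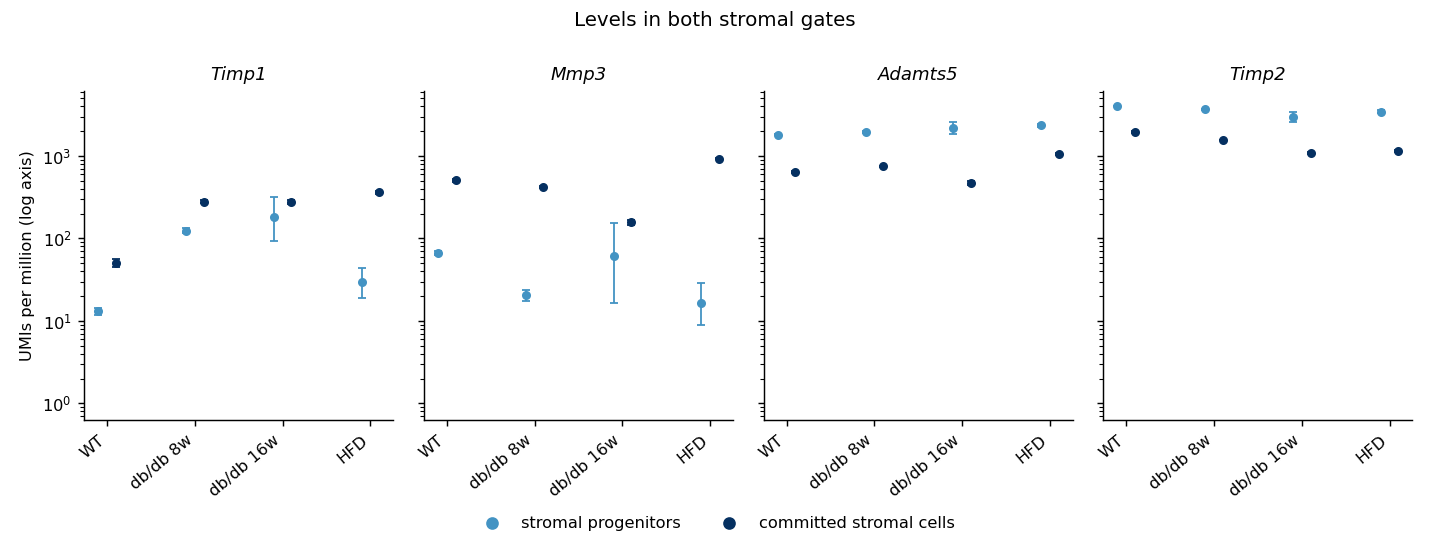
Level of Timp1, Mmp3, Adamts5 and Timp2 in CPM (log axis) in stromal progenitors and committed stromal cells of each library, with exact Poisson 95% intervals. Timp2 and Adamts5 were higher in progenitors and Mmp3 in committed cells in all 4 libraries, and Timp1 was lowest in WT in both gates.

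Mmp3, stromelysin 1, cuts proteoglycans and activates other MMP precursors. In stromal cells it was at 161 CPM (157 to 165) in WT, 274 CPM (268 to 281) and 159.6 CPM (148 to 172) in db/db 8w and 16w, and 827 CPM (807 to 847) in HFD. HFD stood out at 5.14-fold over WT, whereas the log2 ratios of 0.77 (0.72 to 0.82) in db/db 8w and -0.01 (-0.13 to 0.10) in db/db 16w stayed under 2-fold. Mmp3 lay mainly in committed cells, at 506 CPM in WT, 421 and 156 CPM in db/db 8w and 16w, and 929.8 CPM in HFD. In progenitors it was at 66.5 CPM in WT, 20.3 and 60.7 CPM in db/db 8w and 16w, and 16.7 CPM in HFD. Within committed cells the log2 ratios to WT were -0.26 (-0.33 to -0.20) and -1.69 (-1.82 to -1.57) in db/db 8w and 16w and 0.88 (0.82 to 0.94) in HFD, so that HFD stayed under 2-fold and db/db 16w was called lower. Within progenitors Mmp3 was called lower in db/db 8w (-1.71, -1.96 to -1.47) and HFD (-2.0, -2.91 to -1.22), though 16.7 CPM in HFD progenitors did not exceed the 28.3 CPM of T cells. Committed cells made up 1274 of 1502 stromal cells in HFD and 653 of 4200 in WT, and the difference of the whole class cannot be told apart from this.

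The pair that acts together at the cell surface varied less in the stromal class as a whole. Mmp14, the membrane-bound collagenase that activates the MMP2 precursor, was in stromal cells at 478 CPM (471 to 485) in WT, 511 CPM (502 to 519.7) and 678 CPM (653 to 704) in db/db 8w and 16w, and 805 CPM (785 to 824) in HFD. Mmp2 was at 1080.4 CPM (1069 to 1091) in WT, 842 CPM (831 to 854) and 905 CPM (876 to 935) in db/db 8w and 16w, and 722 CPM (704 to 741) in HFD. In the whole class no obese library differed from WT by 2-fold for either gene. Mmp14 was nominally above WT and Mmp2 below it there in all 3. The log2 ratios were 0.10 (0.06 to 0.13) and 0.50 (0.45 to 0.56) in db/db 8w and 16w and 0.75 (0.71 to 0.79) in HFD for Mmp14, and -0.36 (-0.38 to -0.33) and -0.26 (-0.30 to -0.21) in db/db 8w and 16w and -0.58 (-0.62 to -0.54) in HFD for Mmp2. Within progenitors Mmp2 was at 1055 CPM in WT, 701 and 1639 CPM in db/db 8w and 16w, and 487 CPM in HFD, called lower there. Progenitor Mmp14 was at 490 CPM in WT, 410 and 607 CPM in db/db 8w and 16w, and 332 CPM in HFD. Within committed cells Mmp14 was above WT and Mmp2 below it in all 3, by less than 2-fold. The size of the whole-class ratios cannot be told apart from the makeup of the class. In single cells thinned to 1000 UMIs, Mmp2 and Mmp14 were seen together in 22.7% in WT, 20.1% and 29.4% in db/db 8w and 16w, and 26.7% in HFD. Mmp2, Mmp14 and Timp2 were seen together in 21.5% in WT, 16.9% and 23.3% in db/db 8w and 16w, and 18.2% in HFD, always as a share of stromal cells, while in macrophages it was at most 0.288%. The macrophage pair of Mmp12 and Adam8 was seen in 0.0774% in WT, 2.75% and 2.86% in db/db 8w and 16w, and 7.52% in HFD of macrophages.

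Mmp19 was higher in stromal cells too. It was at 32.5 CPM in WT, 114 and 91.0 CPM in db/db 8w and 16w, and 95.8 CPM in HFD, or 3.51-fold, 2.80-fold and 2.94-fold over WT. All obese libraries were called, and the level in T cells was 5.09 CPM in WT, 7.16 and 0 CPM in db/db 8w and 16w, and 18.8 CPM in HFD. Committed cells carried more of it than progenitors in db/db 8w (log2 ratio of progenitors to committed cells -1.60, -1.76 to -1.44) and HFD (-1.77, -2.42 to -1.18). Within committed cells the log2 ratios to WT were 1.60 (1.42 to 1.78) and 0.85 (0.62 to 1.08) in db/db 8w and 16w and 1.04 (0.84 to 1.24) in HFD, called in db/db 8w and HFD, although HFD stays under 2-fold relative to its shift of 0.17. Progenitor Mmp19 was at 26.8 CPM in WT, 50.7 and 45.5 CPM in db/db 8w and 16w, and 30.8 CPM in HFD, and no obese library was called. That HFD level lay within the interval of T cells (2.28 to 68.0). The size of the differences of all stromal cells cannot be told apart from the makeup of the class.

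Stromal cells were higher than WT for 3 of 9 members tested in db/db 8w, 2 of 8 in db/db 16w and 5 of 10 in HFD, beside 3.9%, 12.8% and 10.2% of all genes tested. They were lower for 0, 2 and 1, beside 2.67%, 14.8% and 7.08%. Among the higher members, Mmp12 and Adam8 in HFD (75.2 and 13.1 CPM) did not exceed T cells (179 and 65.9 CPM), and Mmp12 in db/db 8w (17.5 CPM) lay within the interval of T cells (1.48 to 20.9, from 3 UMIs). The median log2 ratio of members tested was 0.10, 0.25 and 1.15, beside 0.03, -0.01 and 0.07 over all genes.

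Within committed cells 4, 2 and 4 members were higher than WT, beside 4.04%, 14.5% and 11.3% of genes, and 0, 1 and 0 lower, beside 2.42%, 10.9% and 4.69%. Within progenitors 2, 1 and 3 were higher, beside 2.88%, 6.22% and 8.68%, and 1, 0 and 2 lower, beside 2.5%, 2.9% and 5.91%. Of these higher members, Mmp12 in db/db 8w was at 14.9 CPM in committed cells and 15.99 CPM in progenitors. Both levels lay within the interval of T cells (1.48 to 20.9). In HFD, Mmp12 was at 68.9 CPM in committed cells and 129.5 CPM in progenitors, not above T cells (108 to 279). Adam8 in HFD, called higher in both gates at no more than 16.7 CPM, was not above T cells either (26.5 to 136). Progenitors against committed cells of the same library gave 3 members higher in WT and 2 in each of the others, beside 6.32%, 7.15%, 7.23% and 9.44%, and 2, 3, 2 and 4 lower, beside 4.53%, 6.04%, 2.96% and 8.59%. Markers of activated fibroblasts (Has1, Ptx3 and Tnfaip6) in stromal cells summed to 948 CPM in WT, 481 and 99.3 CPM in db/db 8w and 16w, and 328 CPM in HFD, and those of pericytes and smooth muscle (Rgs5, Acta2, Myh11 and 3 others) to 8.80 CPM in WT, 30.5 and 253 CPM in db/db 8w and 16w, and 164 CPM in HFD. None of either list was at 0, and their part in these results was not tested.

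Timp3, the inhibitor bound to the matrix, was the only member called higher in endothelial than in stromal cells. In endothelial cells it was at 1657 CPM (1218 to 2204) in WT, 2828 CPM (2604 to 3067) and 1654 CPM (1597 to 1712) in db/db 8w and 16w, and 1504 CPM (1476 to 1532) in HFD, where WT rests on 47 UMIs in 19 cells. The log2 ratios of endothelial to stromal cells were 1.5 (1.06 to 1.91) in WT, 2.23 (2.11 to 2.35) and 0.98 (0.91 to 1.05) in db/db 8w and 16w, and 1.31 (1.26 to 1.36) in HFD, called in all but db/db 16w, where the ratio came just short of 2-fold. Relative to the median of ratios, which lay at 0.66 in WT, the WT ratio was also under 2-fold. Members called higher in endothelial cells thus numbered 1, 1, 0 and 1, beside 11.3%, 19.4%, 18.2% and 16.2% of genes, and members called lower there 4, 7, 7 and 7, beside 4.06%, 12.2%, 23.6% and 15.3%. In stromal cells Timp3 was at 585 CPM in WT, 601 and 839 CPM in db/db 8w and 16w, and 605 CPM in HFD. Within committed cells it was at 301 CPM in WT, 659 and 852 CPM in db/db 8w and 16w, and 553 CPM in HFD, called higher than WT in db/db 8w (2.19-fold) and db/db 16w (2.83-fold).

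Against WT, endothelial Timp3 was not called, with log2 ratios of 0.77 (0.34 to 1.23) and 0.00 (-0.42 to 0.44) in db/db 8w and 16w and -0.14 (-0.55 to 0.31) in HFD. The median of ratios over all genes lay at -0.28, -0.62 and -0.46 in these comparisons. No member was called higher than WT in endothelial cells, beside 0.934%, 1.89% and 1.44% of genes, and 0, 2 and 1 were called lower, beside 2.9%, 7.94% and 5.03%. The lower members were Timp2 in db/db 16w and HFD and Adamts5 in db/db 16w. Endothelial Timp2 was at 247 CPM (99.2 to 509) in WT, 281 CPM (213 to 363) and 30.3 CPM (23.0 to 39.1) in db/db 8w and 16w, and 68.5 CPM (62.6 to 74.8) in HFD, and Adamts5 at 176 CPM in WT, 203 and 39.6 CPM in db/db 8w and 16w, and 79.1 CPM in HFD. Pericyte and smooth muscle markers in endothelial cells summed to 70.5 CPM in WT, 586 and 714 CPM in db/db 8w and 16w, and 946 CPM in HFD, with 5 of 6 at 0 in WT and 2 of 6 in db/db 8w, while the 6 stromal gate markers, none at 0, summed to 599 CPM in WT, 242 and 57.9 CPM in db/db 8w and 16w, and 198 CPM in HFD and were lowest in db/db 16w like Timp2 and Adamts5. The part of either list in these levels was not tested.

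Summed by role, the 7 proteases reached 201 CPM in WT, 851 and 883 CPM in db/db 8w and 16w, and 1668 CPM in HFD in macrophages. The 3 inhibitors reached 1177 CPM in WT, 986 and 756 CPM in db/db 8w and 16w, and 795 CPM in HFD. In the whole class the protease sum was thus higher and the inhibitor sum lower in every obese library than in WT. In lipid-associated macrophages the proteases summed to 1679 CPM in WT, 1569 and 1001 CPM in db/db 8w and 16w, and 2096 CPM in HFD, and in perivascular macrophages to 151 CPM in WT, 246 and 102 CPM in db/db 8w and 16w, and 284 CPM in HFD. The inhibitors summed to 348 CPM in WT, 619 and 670.5 CPM in db/db 8w and 16w, and 853 CPM in HFD in lipid-associated macrophages, and in perivascular macrophages to 1242 CPM in WT, 1409 and 1506 CPM in db/db 8w and 16w, and 599.6 CPM in HFD. Within the gates the inhibitor sum was thus above WT in every obese library but HFD perivascular macrophages. In stromal cells the protease sum was 3288 CPM in WT, 2864 and 2345 CPM in db/db 8w and 16w, and 3738 CPM in HFD, and the inhibitor sum was 4162 CPM in WT, 3058 and 2236 CPM in db/db 8w and 16w, and 2338 CPM in HFD. In the whole stromal class the inhibitor sum was again lower in every obese library than in WT. Within progenitors it was 4736 CPM in WT, 4415 and 3536 CPM in db/db 8w and 16w, and 4499 CPM in HFD. Within committed cells it was 2309 CPM in WT, 2501 and 2209 CPM in db/db 8w and 16w, and 2070 CPM in HFD, so that db/db 8w was above WT. The size of the whole-class difference cannot be told apart from the smaller number of progenitors.

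Both ages of db/db mice were also set side by side. In macrophages, db/db 16w was higher than db/db 8w for 0 and lower for 4 of 9 members tested, beside 10% and 18.3% of genes. Of the 4, Mmp19 (2.19-fold lower) was above T cells in both libraries, Mmp2 was so in db/db 8w only, and Mmp14 and Adamts5 were so in neither. Mmp12 (log2 ratio 0.28, 0.24 to 0.32) and Adam8 (0.46, 0.40 to 0.52) differed by less than 2-fold. Within both macrophage gates their levels were instead lower in db/db 16w. Mmp12 went from 937 to 594 CPM in lipid-associated and from 29.4 to 2.67 CPM in perivascular cells. Adam8 went from 349 to 325 CPM and from 65.6 to 52.0 CPM in the same gates. The ratios of the whole class cannot be told apart from its makeup. In stromal cells, db/db 16w was higher for 0 and lower for 2 of 9 members, beside 5.87% and 10.4%, among them Adamts5 (2.18-fold). The other was Mmp12, at 17.5 CPM in db/db 8w and thus not above T cells (1.48 to 20.9). Within committed cells Adamts5 was at 751 and 469 CPM in db/db 8w and 16w, under 2-fold, and within progenitors at 1954 and 2185 CPM. Committed Mmp3 was at 421 and 156 CPM and called lower. The size of the whole-class difference of Adamts5 cannot be told apart from makeup.

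HFD macrophages were higher than those of db/db 16w for 7 and lower for 1 of 10 members, beside 20.9% and 8.61% of genes. Mmp12 was 2.32-fold and Mmp19 2.61-fold higher, and Timp1 was 3.12-fold lower, but neither Timp1 nor the other 5 were above T cells in either library. HFD stromal cells were higher for 4 and lower for 0 of 10, beside 13.7% and 6.68%, with Mmp3 at 5.18-fold and Adamts5 at 2.38-fold, while the remaining Mmp12 and Adam8 were not above T cells.

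Other genes of the protease network were read from a list of 52, made up of other MMPs, ADAM and ADAMTS enzymes, inhibitors and cofactors, and the plasminogen system. In macrophages 23, 21 and 22 of them were tested, of which 6, 3 and 3 were higher and 1, 9 and 6 lower than in WT, each for db/db 8w, db/db 16w and then HFD. These are shares of 26.1%, 14.3% and 13.6% higher, beside 5.52%, 20.5% and 14% of all genes, and of 4.35%, 42.9% and 27.3% lower, beside 5.68%, 25.8% and 10.5%. Mmp9, gelatinase B, was lower in all 3, at 127 CPM in WT, 22.1 and 7.83 CPM in db/db 8w and 16w, and 2.92 CPM in HFD, and its log2 ratios were -2.52 (-2.68 to -2.36) and -4.02 (-4.28 to -3.77) in db/db 8w and 16w and -5.44 (-5.95 to -4.98) in HFD. Anxa2, a surface receptor for plasminogen, was higher in all 3, with log2 ratios of 1.89 (1.82 to 1.97) and 2.66 (2.59 to 2.73) in db/db 8w and 16w and 2.40 (2.33 to 2.48) in HFD, and so was Plaur, the urokinase receptor, with 1.34 (1.16 to 1.53) and 1.37 (1.18 to 1.55) in db/db 8w and 16w and 1.08 (0.88 to 1.27) in HFD. Serpinb2, an inhibitor of urokinase, was at 19.3 CPM in WT, 52.5 and 0.221 CPM in db/db 8w and 16w, and 1.15 CPM in HFD. Adamts4, an aggrecanase like Adamts5, was at 10.0 CPM in WT, 23.6 and 0.221 CPM in db/db 8w and 16w, and 2.84 CPM in HFD, and both were called higher in db/db 8w and lower in the other obese libraries. In stromal cells Adamts4 was at 31.0 CPM in WT and 51.6 CPM in db/db 8w, above its macrophage levels. Adam33 and Plat were called lower in db/db 16w and HFD, with Adam33 at 37.5 CPM in WT, 19.3 and 2.48 CPM in db/db 8w and 16w, and 5.14 CPM in HFD, and Plat at 18.2 CPM in WT, 11.5 and 0.441 CPM in db/db 8w and 16w, and 4.91 CPM in HFD, levels that were again highest in WT like the stromal gate markers. The 52 genes were not set against T cells or read within the macrophage gates. The part of free RNA and of makeup in these differences was not tested.

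In stromal cells 32, 33 and 32 of the 52 were tested, with 6 higher in each obese library and 1, 9 and 6 lower. These are shares of 18.8%, 18.2% and 18.8% higher, beside 3.9%, 12.8% and 10.2% of all genes, and of 3.12%, 27.3% and 18.8% lower, beside 2.67%, 14.8% and 7.08%. Adam12, a protease of activated mesenchymal cells, was at 11.6 CPM in WT, 82.2 and 123 CPM in db/db 8w and 16w, and 131 CPM in HFD, and its log2 ratios were 2.83 (2.67 to 2.98) and 3.41 (3.22 to 3.60) in db/db 8w and 16w and 3.49 (3.33 to 3.66) in HFD. Adamts12 was also higher in all 3, with 1.13 (1.06 to 1.20) and 1.52 (1.41 to 1.63) in db/db 8w and 16w and 2.12 (2.04 to 2.20) in HFD, and so was Adamts15, with 1.69 (1.52 to 1.86) and 2.36 (2.12 to 2.59) in db/db 8w and 16w and 1.79 (1.57 to 2.0) in HFD. Mmp27 was lower in all 3, with -2.27 (-2.47 to -2.07) and -4.33 (-5.46 to -3.40) in db/db 8w and 16w and -2.54 (-2.93 to -2.18) in HFD. Reck, a membrane-bound inhibitor of MMPs, was at 92.1 CPM in WT, 51.0 and 21.0 CPM in db/db 8w and 16w, and 30.7 CPM in HFD and called lower in db/db 16w and HFD. The same calls were made for Plat, tissue plasminogen activator, at 308 CPM in WT, 216 and 75.6 CPM in db/db 8w and 16w, and 149 CPM in HFD, and for Adam33, at 217 CPM in WT, 129 and 17.6 CPM in db/db 8w and 16w, and 63.8 CPM in HFD. Adam23 was called higher in db/db 16w and HFD, at 56.9 CPM in WT, 85.4 and 124 CPM in db/db 8w and 16w, and 178 CPM in HFD, and Anxa2 in both db/db libraries, at 241 CPM in WT, 509 and 482 CPM in db/db 8w and 16w, and 447 CPM in HFD. The ADAMTS-like genes Adamtsl1 and Adamtsl4, which lack protease activity, were called lower in db/db 16w and HFD, with Adamtsl1 at 196 CPM in WT, 109 and 24.2 CPM in db/db 8w and 16w, and 80.8 CPM in HFD, and Adamtsl4 at 63.2 CPM in WT, 37.1 and 7.81 CPM in db/db 8w and 16w, and 13.5 CPM in HFD. None of the 52 was read within the stromal gates. Their differences between whole stromal classes therefore cannot be told apart from the different makeup of progenitors and committed cells.

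For Mmp3, Mmp12, Mmp14 and Timp1, the genes with the most similar levels over the 12 combinations of 3 cell classes and 4 libraries were sought among 9642 genes, by Pearson's r of log2(CPM + 10). The points share libraries and differ most by cell class, so these values are a description. Mmp12 was most like Atp6v0d2, a subunit of a proton pump (r = 0.98), Il7r, the receptor of interleukin 7 (r = 0.97), and Trem2, a lipid receptor that was itself a marker of the lipid-associated gate (r = 0.96). Mmp3 was most like Svep1 (r = 0.99), the stromal gate marker Lum (r = 0.97) and Rian (r = 0.97). Mmp14 was most like Lama2, Mxra8 and Fst (r = 0.99 each), and Timp1 like Fbln7, Mdk and Prrx2 (r = 0.95 each).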

How the data were processed

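Single cells of the BAT SVF were measured in 4 libraries, 1 per group. The authors deposited unnormalized UMI counts per gene and cell barcode, made with Cell Ranger against mm10 (version 6.0.0 per the file headers, 7.1.0 per the submitters' processing notes). Cells were kept between 250 and 6000 genes and between 500 and 30000 UMIs, with a mitochondrial share below 15%, which left 5944, 11648, 5833 and 5462 of 8318, 18306, 6517 and 17440 barcodes (WT, db/db 8w, db/db 16w, HFD). Total UMIs of the libraries were between 28504069 and 61828295.

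A cell was gated to a class with at least 3 UMIs over 2 genes of its marker panel and at least 3 times the UMIs of each other panel, and to a subgroup with at least 2 UMIs and 3 times those of the other subgroup. Between 78.1% and 93.8% of kept cells were gated. UMIs were summed per class and library and divided by the class total (CPM). Levels carry exact Poisson, ratios exact conditional binomial and shares Clopper-Pearson 95% intervals, all for counting error only. For counts of 0 the limit is that of 3 UMIs. As 3′ UMI levels of different genes are not on 1 scale per length, levels were compared within genes, and sums over genes only between libraries.

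With 1 library per group no test across samples exists, so edgeR was not used, and percentages of all genes called stand beside each count of members. No doublet caller was run; leaving out the deepest 10% of cells of each class was an alternative. Other alternatives were a stricter gate, no UMI of another panel, second marker panels, no mitochondrial limit, thinning, equal weight per cell, median-of-ratios scaling and other minimum levels. Leaving out shared barcodes, leaving out the cell with the most UMIs of a gene and reading single subgroups were added after seeing the data. All 10 members were named, as were genes of the list of 52 called in at least 2 obese libraries in the same class and, for 4 members, the 3 genes most like them. A gene that met this rule is not reported here. The members, marker panels and gene lists were chosen with earlier results of these data known. Python 3.11.15, NumPy 2.4.6, SciPy 1.17.1, pandas 2.3.3 and matplotlib 3.10.9 were used, and the scripts were tested on simulated data. Gene coordinates came from GENCODE vM21 (GRCm38), which matched 32235 of 32285 gene IDs.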

Additional observations from a re-analysis of the deposited data

Results flagged for a closer look

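Adam8 differed from WT in opposite directions in the 2 macrophage gates, in all 3 obese libraries. In perivascular macrophages the log2 ratios to WT were 1.88 (1.62 to 2.16) and 1.55 (1.13 to 1.96) in db/db 8w and 16w and 1.88 (1.41 to 2.33) in HFD. In lipid-associated macrophages they were -0.27 (-0.60 to 0.08) and -0.37 (-0.70 to -0.02) in db/db 8w and 16w and -0.58 (-0.91 to -0.23) in HFD. In HFD the perivascular level of 65.2 CPM was not above T cells, at 65.9 CPM (26.5 to 136), so no difference is read from it there. The difference between the gates was not tested, as each group is 1 library. The WT value of the lipid-associated gate rests on 16 cells with 76 Adam8 UMIs, that of the perivascular gate on 1216 cells with 142 UMIs, and the interval of the lipid-associated ratio includes 0 in db/db 8w.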

How the results depend on the processing

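No paired analysis was possible because each group is 1 library and no test across samples was made. Of 254 recomputed counts of members called, 244 stayed within 1.5 times the reported count, and of 2275 recomputed log2 ratios 1649 stayed within their counting interval, 613 left it without turning a called direction and 13 turned one. Against WT with lipid-associated macrophages alone, an alternative added after seeing the data, the members called in macrophages numbered 2 in db/db 8w (from 4), 3 in db/db 16w (from 6) and 4 in HFD (from 7), and with a minimum of 50 CPM they numbered 2 in db/db 16w and 4 in HFD. Progenitors alone left 1 in db/db 16w stromal cells (from 4). Endothelial against stromal cells of WT gave 3 (no UMI of another panel) and 8 (equal weight per cell) in place of 5, where 4 and 19 endothelial cells remain, and thinning left 3 of 5 members called between the macrophage gates in WT and 2 of 4 in HFD. In lipid-associated macrophages alone the log2 ratio of Mmp19 turned to -1.56 in db/db 8w and -1.84 in HFD, that of Adam8 to -0.27 and -0.37 in db/db 8w and 16w and -0.58 in HFD, that of Mmp14 in db/db 16w to 0.056 and that of Adamts5 in HFD to 1.0. Mmp12 in db/db 16w turned to -0.72 in perivascular macrophages alone. In progenitors alone Adamts5 in db/db 16w turned to 0.27 and Mmp3 in HFD to -2.0. Without any UMI of another panel, Timp3 in HFD macrophages turned to -0.13 and Adamts5 between the macrophage gates of HFD to -0.45, and thinning turned Adamts5 between these gates in WT to 0.25. Leaving out the highest cell of each library called Timp3 lower in db/db 16w macrophages (-1.14). The single-subgroup alternatives hold fewer cells by construction, and for the others the cause was not tested. Small cell numbers limit the comparisons with WT most, with 19 endothelial and 16 lipid-associated cells.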
